A study of Mus musculus with 24 samples.

Results

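Atf3, Atf4, Atf5, Cebpb, Cebpg and Nfil3 encode basic leucine zipper (bZIP) transcription factors, proteins that bind DNA as pairs held together by a coiled coil. The 6 genes were taken by name, and all 9 of their probe sets in the deposited table are described, out of 12422 probe sets and 8251 genes with a probe set of 1 symbol. These genes and the gene lists used below were chosen with earlier results of these data known. Their counts and medians beside those of all probe sets are therefore a description and no independent test. Expression was measured on 24 arrays of mouse fibroblast lines, in 12 groups of 2 arrays. In one set of 12 arrays, wild-type, ATF4-/- and PERK-/- cells were left untreated or given tunicamycin at 2 ug/ml, for 6 h in wild-type and ATF4-/- cells and for a time the labels do not give in PERK-/- cells. Tunicamycin blocks N-linked glycosylation, so that proteins misfold in the endoplasmic reticulum (ER). The other 12 arrays hold 2 lines that express Fv2E-PERK, a chimeric kinase that the dimerizer AP20187 switches on without tunicamycin. The SS line has wild-type eIF2alpha and lacks PERK itself, a background the submitters chose because clones with a high level of the chimera could not be had in wild-type cells. The AA line has mutant eIF2alpha, and the labels leave its PERK genotype unstated. Each was untreated or exposed to AP20187 (written as 2 nm in the labels) over 4 h or 8 h. Each genotype is 1 line, so genotype and line cannot be told apart. Nothing in the labels says whether replicate arrays stand for separate cultures. The p-values therefore measure just the spread among these samples, and that spread may be technical.

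In the integrated stress response, kinases such as PERK phosphorylate the translation initiation factor eIF2alpha. Most protein synthesis slows, while messenger RNAs with certain upstream open reading frames, those of Atf4 and Atf5 among them, are translated more. ATF4 then pairs with C/EBP proteins on composite C/EBP-ATF sites and raises genes of amino acid supply and of further bZIP factors. An array reads messenger RNA and not this step of translation. The study compared which stress-responsive genes need PERK, ATF4 or the phosphorylation site of eIF2alpha.

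Each value below is read as a ratio to the probe set's median on all 24 arrays, since that median lay within 0.01 of 1 in 91.46% of probe sets. Levels can thus be compared between groups of a set but not between genes or between sets. The lowest value, 0.01, is called the floor. Between 22.6% and 25.6% of a tunicamycin array sat at it, against 0.00805% to 0.105% of an Fv2E-PERK array. Replicate arrays correlated at r = 0.711 to 0.785 in the first set. In the second they correlated at 0.865 to 0.932, apart from the AA line at 8 h of AP20187, at 0.675 the lowest of all groups. All 10 fibroblast markers looked at (Col1a1, Col1a2, Col3a1, Fn1, Vim, Thy1, Pdgfra, Pdgfrb, Dcn, Lum) had a probe set, and 8 were never at the floor on the tunicamycin arrays, against 1 of 4 epithelial, 2 of 4 blood and 1 of 4 endothelial markers. On the Fv2E-PERK arrays all 10 and all 4 of each other list were never at the floor, so the floor separates no cell type there. The probe set of Eif2ak3, the gene of PERK, read 0.398 and 0.241 in PERK-/- cells without the drug, and 0.987 and 0.556 with it. Wild-type cells gave 1.91 and 0.0222 without it, and 2.26 and 1.97 with it. The sources used here do not place this probe set relative to the deletion, so it does not check the label, and one wild-type array lay below every PERK-/- array.

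The probe set used for each gene was the one with the fewest floor values, then one with a plain _at suffix, then the lowest number. For Atf3 the number decided and for Nfil3 the suffix, since 2 probe sets of each were at the floor on 0 of 24 arrays, as were all 6 used. These were 104155_f_at for Atf3, 100599_at for Atf4, 103006_at for Atf5, 92925_at for Cebpb, 92195_at for Cebpg and 102955_at for Nfil3. Of the other 3, the Atf3 probe set 161645_r_at was at the floor on all 12 tunicamycin arrays. It read 1.18 or more on every Fv2E-PERK array, so its median is not near 1 and its scale differs from that of the others. The Atf3 probe set 104156_r_at and the Nfil3 probe set 101805_f_at were never at the floor and are given beside the results.

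Tunicamycin in wild-type cells raised Atf3 4.61-fold and Nfil3 3.17-fold. The other 4 members read 1.94-fold to 2.83-fold higher and did not pass the test. A gene was called where its adjusted p was under 0.05 in limma, a linear model fitted across all 7387 probe sets that were never at the floor on these 12 arrays. In that comparison 0.839% of the probe sets were called, 0.677% as higher, against 2 of 6 members. All 6 members had an unadjusted p under 0.05, against 10.7% of all probe sets, and both treated arrays lay above both untreated arrays in all 6, as they did in 22.1% of all probe sets.

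Atf4, the gene of the regulator on which the pathway converges, had ratios of 0.770 and 0.745 in untreated wild-type cells and 1.64 and 1.62 after tunicamycin. The 2 arrays of each group lay close together and the groups were well apart. The change was 0.90 ± 0.17 (SE) on the log2(ratio + 0.247) scale on which all log2 values here are given, and limma's adjusted p was 0.0579, just outside the threshold. Atf5, whose translation is controlled like that of Atf4, read 0.494 and 0.368 without and 1.05 and 1.39 with the drug. It was 2.83-fold higher in the group means, yet its arrays varied more than those of Atf4, and the change of 1.11 ± 0.34 had an adjusted p of 0.226 in limma.

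Atf3, a stress-induced factor best known as a repressor, read 0.908 and 0.771 in wild-type cells at rest, then 4.34 and 3.41 with tunicamycin. This was the widest gap among the 6 genes, with a change of 1.92 ± 0.23 and an adjusted p of 0.00989 in limma. Its second probe set, 104156_r_at, changed by 0.37 ± 0.40 (adjusted p = 0.856 in limma), so the call rests on 1 of the 2 probe sets that could be tested. Nfil3, a repressor also known for its part in circadian and immune cell gene control, read 0.874 and 0.712 without and 2.59 and 2.44 with tunicamycin. Its treated arrays stood clear of all other tunicamycin arrays, and its change of 1.41 ± 0.17 was called (adjusted p = 0.00989 in limma). The second Nfil3 probe set, 101805_f_at, changed by 0.37 ± 0.19 and was not called (adjusted p = 0.555 in limma).

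Cebpb and Cebpg encode C/EBP proteins that can pair with ATF4, CEBPG being a short form without a strong activation domain of its own. Cebpb went from 1.36 and 0.883 to 2.23 and 2.16 in wild-type cells. Cebpg went from 0.758 and 0.511 to 1.18 and 1.27. In both genes the untreated arrays were spread more widely than the treated ones, without overlap between the groups. Their changes of 0.86 ± 0.21 and 0.76 ± 0.25 had adjusted p-values of 0.116 and 0.265 in limma.

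The calls of Atf3 and Nfil3 in wild-type cells were lost without untreated array 2 or without either treated array, at adjusted p-values of 0.0618 to 0.0823 in limma, while Atf4 was called without either untreated PERK-/- array (0.0471 and 0.0433). With all 24 arrays in one fit, Atf4 (adjusted p = 0.00428 in limma), Atf5 (0.0320) and Cebpb (0.0440) passed as well. In earlier work on these data, simulation of such a fit gave a share of false calls well above the nominal one. The sets were therefore fitted apart, and calls made only by the fit of 24 arrays carry that limit.

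**Figure D1:**
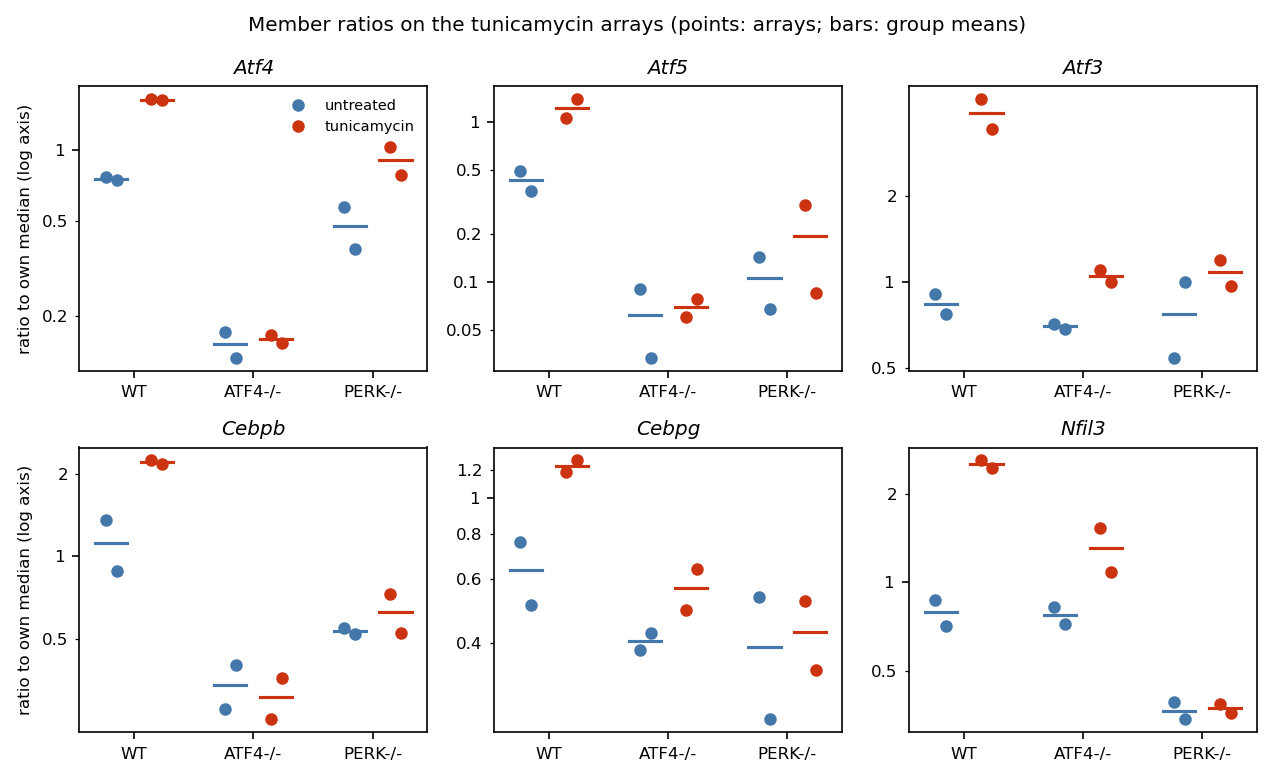
Ratio of each of the 6 genes to its own median (log axis) on the 12 tunicamycin arrays, by line; points are arrays, bars are means of the 2 arrays of a group. In wild-type cells both treated points lie above both untreated points for all 6 genes, and the ATF4-/- points of Atf4 all lie between 0.133 and 0.170.

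In ATF4-/- cells tunicamycin changed 0 of the 6 genes by limma's adjusted p, while 0.42% of all probe sets were called, and 1 had an unadjusted p under 0.05, against 8.68% of all. Atf4 itself, the deleted gene, read 0.170 and 0.133 before the drug and 0.166 and 0.153 after it. All 4 arrays lay below every wild-type and every PERK-/- array, with no gap between treated and untreated. Nfil3 had the widest shift of the 6, from 0.822 and 0.725 to 1.53 and 1.08, a change of 0.59 ± 0.17 (adjusted p = 0.263 in limma). Atf3 read 0.716 and 0.688 before and 1.10 and 0.999 after, a change of 0.45 ± 0.23 (adjusted p = 0.624 in limma). In these 2 genes and in Cebpg, at 0.384 and 0.428 before and 0.494 and 0.641 after, the treated arrays lay above the untreated ones without a call, as they did in 24.9% of all probe sets. Cebpb, at 0.278 and 0.401 before and 0.255 and 0.361 after, showed overlapping groups. Atf5 stayed near the bottom of its range, at 0.0898 and 0.0334 before and 0.0604 and 0.0781 after, values below the pseudocount at which a log2 change understates any difference. For Atf3 and Nfil3 the second probe sets read changes of the opposite sign, -0.21 ± 0.40 and -0.01 ± 0.19, neither of them called. On quantile-normalized arrays the changes of Atf4 and Atf5 turned to -0.04 and -0.01.

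PERK-/- cells likewise gave 0 calls among the 6 genes in limma, in a comparison that called 0% of all probe sets, and 1 had an unadjusted p under 0.05, against 7.13% of all. That gene was Atf4, which went from 0.573 and 0.383 to 1.03 and 0.783, without overlap, as was so for higher values in 15% of all probe sets. Its change was 0.67 ± 0.17 (adjusted p = 0.457 in limma). Nfil3 lay flat and low, at 0.392 and 0.343 without and 0.387 and 0.360 with tunicamycin, and its change of 0.02 had a 95% interval of -0.36 to 0.39. Atf3 went from 0.544 and 1.001 to 1.20 and 0.967, Cebpb from 0.547 and 0.520 to 0.730 and 0.528, and Cebpg from 0.535 and 0.247 to 0.523 and 0.339. Atf5 read 0.144 and 0.0677 before and 0.301 and 0.0847 after. The groups of these 4 genes overlapped. The second probe sets of Atf3 and Nfil3 again read the opposite sign, at -0.15 ± 0.40 and -0.08 ± 0.19.

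The difference between the tunicamycin responses of a mutant line and of wild-type cells was tested directly as an interaction. Both comparisons use the same 4 wild-type arrays. The 6 differences for ATF4-/- cells ran from -0.44 (Cebpg) to -1.47 (Atf3), with a median of -0.90 against 0.00 over all probe sets. They include that of Atf4, the deleted gene, whose readings in these cells are set by the genotype. Atf3 differed by -1.47 ± 0.32 (adjusted p = 0.644 in limma), Atf5 by -1.07 ± 0.49, Cebpb by -0.94 ± 0.29, Atf4 by -0.87 ± 0.25 and Nfil3 by -0.82 ± 0.23. Against PERK-/- cells the 6 differences ran from -0.23 (Atf4) to -1.50 (Atf3), with a median of -0.76 against -0.02 over all probe sets. Nfil3 had the smallest adjusted p there, 0.119 in limma, at a difference of -1.40 ± 0.23. By limma's adjusted p, 0 of 6 differences were called in either comparison, where 0% of all probe sets were called, and 4 and 3 had an unadjusted p under 0.05, against 4.91% and 7.61% of all. A smaller response of these genes in the mutant lines was thus not shown by the test of the difference.

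Atf4 is the gene deleted in ATF4-/- cells, so its low level there is given by the genotype. In untreated ATF4-/- cells Atf4 was at 0.2 of its wild-type mean, a change of -1.34 ± 0.17 (adjusted p = 0.0339 in limma), and was the 1 member called, where 0.0948% of probe sets were called and 0.0677% as lower. The ATF4-/- arrays of Atf4 lie below the pseudocount of 0.247, so this log2 change understates the gap. It reached -1.95 over the settings tried. Cebpb was at 0.303 of its wild-type mean (-1.21 ± 0.21, adjusted p = 0.102 in limma) and Atf5 at 0.143 (-1.14 ± 0.34, adjusted p = 0.472). The Cebpb value passed after quantile normalization (-1.35 ± 0.19, adjusted p = 0.0430 in limma) and with all 24 arrays in one fit (0.0120). The fit of 24 arrays carries the limit on false calls given above. With a pseudocount 4 times smaller the Atf5 value became -2.02 ± 0.72. Cebpg and Atf3, at 0.64 and 0.836 of their wild-type means, lay below wild type on both arrays without a call, and Nfil3, at 0.975, overlapped. Arrays of 5 of the 6 genes thus lay below both wild-type arrays, as did those of 16.6% of all probe sets. The Atf4 call was lost without any 1 array other than the untreated PERK-/- ones, at adjusted p-values of 0.0519 to 0.202, and also without the floor filter (0.107) or with a looser one (0.0923).

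In untreated PERK-/- cells Nfil3 was at 0.463 of its wild-type mean (-0.76 ± 0.17, adjusted p = 0.0592 in limma), Cebpb at 0.475, Atf4 at 0.631 and Atf5 at 0.245. In these 4 genes both PERK-/- arrays lay below both wild-type arrays, as they did in 19.9% of all probe sets. By limma 0 of 6 were called where 1.64% of probe sets were called, and 4 had an unadjusted p under 0.05, against 15.8% of all. The Nfil3 value passed when each array was divided by its median (adjusted p = 0.0453 in limma) and with the smaller pseudocount (0.0484). Those of Atf5 (0.0487) and Cebpb (0.0463) passed only with all 24 arrays in one fit, which carries the limit on false calls given above. The Atf5 value became -1.58 ± 0.72 with the smaller pseudocount.

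After tunicamycin the levels themselves differed between lines, a comparison added after the data were seen. In treated ATF4-/- cells 5 of the 6 genes were lower than in treated wild-type cells, where 1.34% of all probe sets were called and 0.975% as lower. Among them is Atf4, the deleted gene, whose low level there is given by the genotype and is no result about the members. The 5 were Atf4 (-2.21 ± 0.17, adjusted p = 0.000998 in limma), Cebpb (-2.15 ± 0.21, 0.00231), Atf3 (-1.66 ± 0.23, 0.016), Atf5 (-2.20 ± 0.34, 0.022) and Nfil3 (-0.84 ± 0.17, 0.047). Cebpg read -0.86 ± 0.25 (adjusted p = 0.166 in limma). Treated ATF4-/- arrays of Atf4 and Atf5 lie below the pseudocount, so their log2 changes understate the gap. Both mutant arrays lay below both wild-type arrays in all 6 genes, as in 27% of all probe sets. The calls of Atf4 and Cebpb held without any 1 array. Those of Atf3 and Atf5 were lost without any 1 of the 4 arrays compared (0.0504 to 0.105 and 0.111 to 0.222), that of Nfil3 without any 1 of the 12 (0.0607 to 0.250) and under 4 other settings, and that of Atf5 with the smaller pseudocount (0.0845). The second probe sets of Atf3 (-1.15 ± 0.40, 0.239) and Nfil3 (-0.51 ± 0.19, 0.259) were lower without a call.

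In treated PERK-/- cells all 6 genes were lower than in treated wild-type cells, where 6.65% of probe sets were called and 4.48% as lower. Nfil3 showed the largest gap (-2.15 ± 0.17, adjusted p = 0.000804 in limma), with wild-type arrays at 2.59 and 2.44 against 0.387 and 0.360. Cebpb (-1.49 ± 0.21, 0.0056) and Atf3 (-1.63 ± 0.23, 0.00591) followed by adjusted p, then Atf5 (-1.77 ± 0.34, 0.0196), Cebpg (-1.13 ± 0.25, 0.0291) and Atf4 (-0.71 ± 0.17, 0.0444). Arrays of all 6 were below wild type without overlap, as in 26.3% of probe sets. Nfil3, Cebpb and Atf3 stayed called without any 1 array. The calls of Atf5, Cebpg and Atf4 were lost without treated PERK-/- array 2 or either treated wild-type array (0.0928 to 0.201). Cebpg was also lost without treated ATF4-/- array 2 or either untreated ATF4-/- array (0.0504 to 0.0509), and Atf4 without any ATF4-/- or untreated wild-type array (0.0632 to 0.0721). Quantile normalization and both looser floor filters ended the calls of Atf4 (0.0728 to 0.113) and Cebpg (0.0542 to 0.0978), and the smaller pseudocount those of Atf4 (0.0782) and Atf5 (0.0818). On the second probe sets Atf3 was lower (-1.63 ± 0.40, 0.0479) and Nfil3 read -0.53 ± 0.19 (0.133). The 2 comparisons share the treated wild-type arrays, and neither shows by itself that the treatment acted less. Untreated means also lay below wild type in both mutant lines, though limma called just 1 of 6 genes in ATF4-/- and 0 of 6 in PERK-/- cells. The 1 called was Atf4, the deleted gene. The tunicamycin time is not known for PERK-/- cells, against 6 h in wild-type cells. Summed over the 10 fibroblast markers, the ratio was 16.8 to 22 in treated wild-type, 14.2 to 15 in treated ATF4-/- and 11.4 to 12.1 in treated PERK-/- cells, and its part in these results was not tested.

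Other genes of the pathway put these values in context. Beside the list counts below, tunicamycin gave calls in 0.839% of all probe sets in wild-type, 0.42% in ATF4-/- and 0% in PERK-/- cells. An unadjusted p under 0.05 was seen in 7.13% of all in PERK-/- cells. Of 32 other bZIP genes listed, 26 had a probe set and 17 could be tested on the tunicamycin arrays. In wild-type cells 2 rose, Ddit3 (3.64 ± 0.26, adjusted p = 0.00105 in limma), the gene of the pro-apoptotic factor CHOP, and Atf6 (1.88 ± 0.23, 0.00989), an ER stress sensor. In ATF4-/- cells 2 rose, Ddit3 (2.58 ± 0.26, 0.00492) and Xbp1 (1.19 ± 0.16, 0.0197), the target of the ER sensor IRE1. In PERK-/- cells 0 of 17 were called by limma, and 4 had an unadjusted p under 0.05. The median change in wild-type cells was 0.20 for these 17 genes, 1.01 for the 6 members and 0.02 for all probe sets.

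Of 32 genes listed as ATF4 targets, 27 had a probe set and 23 could be tested here. In wild-type cells 6 rose, led by Ddit3, which is in both lists, Herpud1 (2.74 ± 0.33, adjusted p = 0.00989 in limma) and the pseudokinase gene Trib3 (1.81 ± 0.24, 0.0153). In ATF4-/- cells 2 rose, Ddit3 and Herpud1 (2.19 ± 0.33, 0.0335), and in PERK-/- cells 0 by limma, with 9 at an unadjusted p under 0.05. The ER chaperones, which answer ER stress mainly through other sensors, gave 8 of 11 tested genes higher in wild-type and 7 of 11 in ATF4-/- cells. Creld2 rose by 2.67 ± 0.20 and 2.52 ± 0.20 in these lines. In PERK-/- cells 0 of 11 chaperones were called, with a median change of 0.87 and 8 at an unadjusted p under 0.05. The difference of responses between ATF4-/- and wild-type cells had a median of 0.01 over the chaperones. Over the 6 bZIP genes, the deleted Atf4 included, it was -0.90. In both lists 0 were called, and 0 chaperones had an unadjusted p under 0.05. Between PERK-/- and wild-type cells the 2 medians were alike, at -0.81 and -0.76, again with 0 called. An unadjusted p under 0.05 was seen there in 5 of 11 chaperones and 3 of 6 bZIP genes, against 7.61% of all probe sets. In treated PERK-/- cells 9 of 11 chaperones were called lower than in treated wild-type cells, where 4.48% of all were. The median was -1.79 for the chaperones and -1.56 for the 6 genes. Of the genes of eIF2alpha kinases, phosphatase subunits and exchange factor, 1 of 10 tested rose in wild-type cells, Dnajc3 (1.85 ± 0.26, adjusted p = 0.0193 in limma). It encodes an ER co-chaperone also described as a kinase inhibitor, and is in the chaperone list too.

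Switching on Fv2E-PERK in the SS line raised 5 of the 6 genes by 4 h and all 6 by 8 h. At 4 h 4.76% of the 12384 probe sets tested on these arrays were called, 2.99% as higher, and at 8 h 7.56% and 4.93%. Both treated arrays lay above both untreated ones for all 6 genes at both times, as they did in 24.7% and 29% of all probe sets. Atf3 rose most, 9.63-fold at 4 h and 5.98-fold at 8 h. The median change of the 6 was 1.29 at 4 h and 1.30 at 8 h, against -0.03 and 0.04 over all probe sets. Both times are compared with the same untreated arrays.

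Atf4 read 1.38 and 1.54 in untreated SS cells, 2.61 and 2.85 at 4 h, and 2.88 and 3.67 at 8 h. Its groups did not overlap with the untreated one, and it rose by 0.80 ± 0.16 (adjusted p = 0.0273 in limma) and 1.04 ± 0.16 (0.00813). Atf5 read 1.04 and 0.877, then 2.58 and 2.42, then 2.59 and 4.08. Its 2 arrays at 8 h lay further apart than at 4 h, and the rises were 1.19 ± 0.23 (adjusted p = 0.0268 in limma) and 1.54 ± 0.23 (0.00786).

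Atf3 started at 3.14 and 2.71, reached 26.8 and 29.5 by 4 h and stood at 16.1 and 18.9 by 8 h. Its untreated SS level lay above all of its AA arrays, and its 4 h arrays were the highest of the 12. It rose by 3.16 ± 0.20 at 4 h, which ranked 7 of 12384 by size, and by 2.48 ± 0.20 at 8 h (adjusted p = 0.000478 and 0.000828 in limma). The second Atf3 probe set moved alike, from 1.26 and 1.27 to 7.53 and 8.21 and then 4.25 and 4.94. The third, 161645_r_at, showed no rise, at 1.29 and 1.35, then 1.18 and 1.30, then 1.38 and 1.37. Between 4 h and 8 h, a comparison added after the data were seen, the Atf3 change was -0.68 ± 0.20 on the first and -0.75 ± 0.17 on the second probe set. In that comparison 0.509% of probe sets and 0 of the 6 genes were called by limma (adjusted p = 0.189 for Atf3), and 1 had an unadjusted p under 0.05, against 14.6% of all probe sets. The 8 h arrays of Atf4, Atf5 and Cebpb lay above the 4 h arrays, as in 30.6% of probe sets, and those of Atf3 and Nfil3 below, as in 18.8%.

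Nfil3 started at 2.10 and 1.86, reached 5.18 and 6.09 by 4 h and stood at 4.32 and 5.01 by 8 h. As for Atf3, the 4 h arrays were the highest and both times stood clear of the untreated cells, with rises of 1.40 ± 0.24 (adjusted p = 0.0174 in limma) and 1.14 ± 0.24 (0.0261). The second Nfil3 probe set rose by 0.99 ± 0.20 at 4 h (adjusted p = 0.0329) and read 0.75 ± 0.20 at 8 h (0.0652), which missed the threshold.

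Cebpg started at 1.25 and 1.47, reached 4.22 and 4.61 by 4 h and stayed at 4.11 and 4.23 by 8 h. The 2 times were nearly level, and the rises of 1.54 ± 0.14 and 1.46 ± 0.14 were called (adjusted p = 0.00134 and 0.00137 in limma). Cebpb read 2.67 and 2.08, then 3.40 and 4.06, then 4.24 and 5.33. It was highest at 8 h in both arrays. Its change of 0.61 ± 0.21 at 4 h was not called (adjusted p = 0.15 in limma), and its rise of 0.94 ± 0.21 at 8 h was (0.0329). The difference between 8 h and 4 h was 0.34 ± 0.21 for Cebpb, 0.35 ± 0.23 for Atf5, 0.24 ± 0.16 for Atf4, -0.26 ± 0.24 for Nfil3 and -0.08 ± 0.14 for Cebpg, none of them called.

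The calls of Atf3 and Cebpg at both times held without any 1 of the 12 arrays. At 4 h those of Atf4, Atf5 and Nfil3 were lost without any 1 of the 4 arrays compared, and that of Atf4 also without either AA 4 h array (0.0513 to 0.163 in limma). At 8 h that of Cebpb was lost without any 1 array other than the AA 8 h ones (0.0527 to 0.194), that of Nfil3 without any 1 of the 4 arrays compared (0.0780 to 0.155), and those of Atf4 and Atf5 without SS 8 h array 2 (0.0632 and 0.0539). Quantile normalization also took Cebpb (0.0712) and Nfil3 (0.0763) past the threshold at 8 h. The summed ratio of the 10 fibroblast markers moved in the other direction in this line, from 9.67 to 11 untreated to 6.16 to 6.51 at 4 h and 4.14 to 4.39 at 8 h, against 8.98 to 11.9 over the AA arrays. Its part in the rises was not tested.

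**Figure D2:**
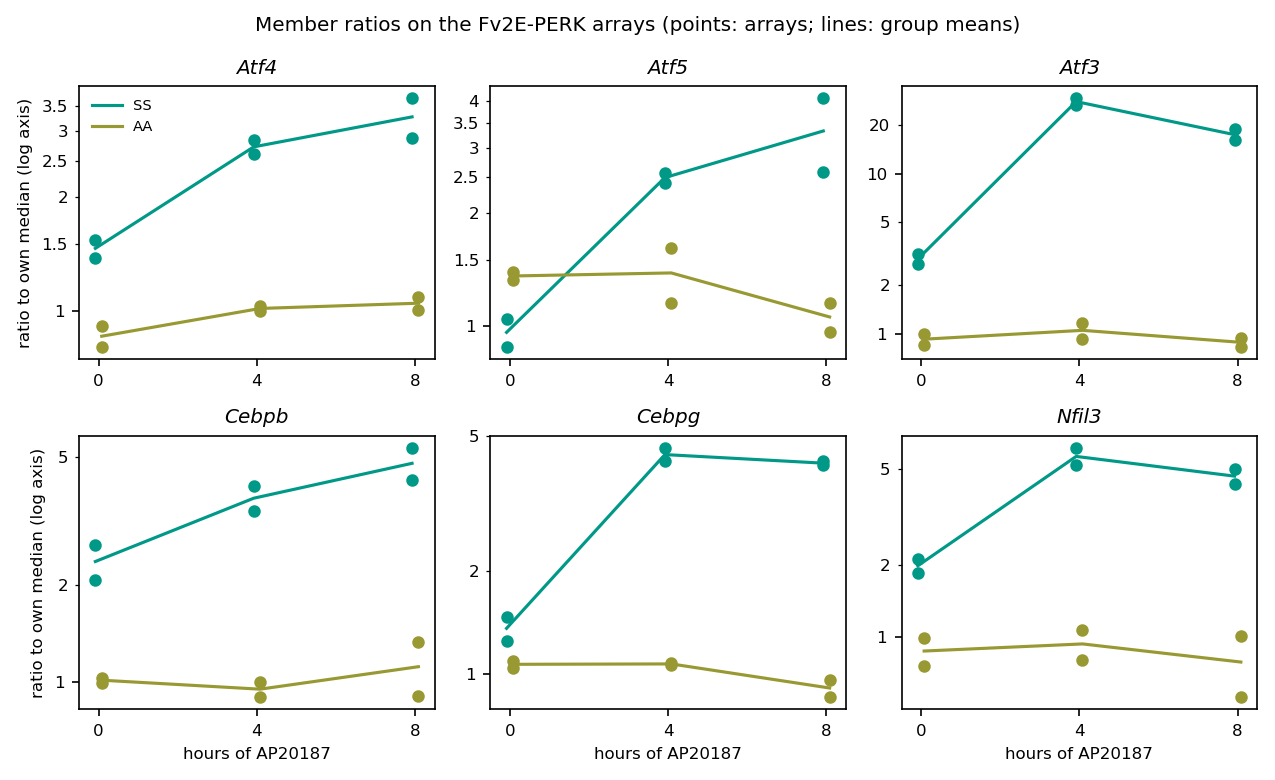
Ratio of each of the 6 genes to its own median (log axis) against hours of AP20187 in the SS and AA lines; points are arrays and lines join the means of the 2 arrays. Every SS point at 4 h and 8 h lies above both untreated SS points, and Atf3 reaches 26.8 and 29.5 at 4 h.

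The AA line, with mutant eIF2alpha, gave 0 of 6 calls in limma at 4 h and at 8 h, and 0 members had an unadjusted p under 0.05 at either time. In these comparisons 0% of all probe sets were called, and 3.88% and 6.83% had an unadjusted p under 0.05. Atf4 started at 0.800 and 0.908 and read 1.03 and 0.996, then 1.004 and 1.09. Atf3 read 0.996 and 0.851, then 1.17 and 0.924, then 0.938 and 0.827. Cebpg read 1.09 and 1.04, then 1.06 and 1.07, then 0.856 and 0.959. Atf4 treated arrays lay slightly above the untreated ones, as in 16.1% of probe sets at 4 h and 17.3% at 8 h. Those of Atf3 overlapped, and those of Cebpg overlapped at 4 h and lay below at 8 h, as in 16.7% of probe sets. Atf5 read 1.33 and 1.39, then 1.15 and 1.62, then 0.959 and 1.15. Cebpb read 0.997 and 1.04, then 1.003 and 0.904, then 0.905 and 1.33. Nfil3 read 0.990 and 0.761, then 1.07 and 0.802, then 1.01 and 0.566. These 3 genes showed no gap in the direction of the SS line. The Atf5 arrays at 8 h lay below the untreated ones, as in 16.7% of probe sets, with an uncalled change of -0.31 ± 0.23. The widest 95% interval at 4 h was that of Nfil3, from -0.47 to 0.62, and the change of Atf3 lay between -0.32 and 0.61. The AA arrays at 8 h correlated with each other at r = 0.675, the lowest of all groups.

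Tested directly, the AP20187 response in the AA line was smaller than in the SS line for Atf3 by -3.02 ± 0.29 (adjusted p = 0.00715 in limma) and for Cebpg by -1.54 ± 0.20 (0.0237) at 4 h. These were 2 of 6 members, where 0.484% of probe sets were called and 0.38% as smaller in AA. At 8 h Atf3 (-2.53 ± 0.29, adjusted p = 0.00972 in limma), Cebpg (-1.65 ± 0.20, 0.0107) and Atf5 (-1.85 ± 0.32, 0.0316) differed, 3 of 6 members where 2.08% were called and 1.41% as smaller. Nfil3 read -1.32 ± 0.34 at 4 h (0.158) and -1.28 ± 0.34 at 8 h (0.094), Atf4 -0.60 ± 0.22 and -0.80 ± 0.22, and Cebpb -0.68 ± 0.30 and -0.85 ± 0.30. All 6 differences were negative at both times with an unadjusted p under 0.05, a threshold that 12.8% and 19.1% of all probe sets passed in either direction. The 8 h differences rest on the AA 8 h arrays, whose replicates correlated least of all groups. The second Atf3 probe set gave -2.57 ± 0.25 (0.00715) and -1.55 ± 0.25 (0.0258), and the third -0.05 ± 0.24 and 0.16 ± 0.24.

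Without 1 array, the 4 h difference of Atf3 was lost for AA 4 h array 1 or 2, AA untreated array 1 or SS 4 h array 2 (0.0515 to 0.0623 in limma), and that of Cebpg for any of the 8 arrays compared (0.0620 to 0.115). At 8 h that of Atf5 was lost without any 1 array other than AA 8 h array 1 and SS 8 h array 1 (0.0507 to 0.117), that of Atf3 without AA untreated array 1 (0.0521), and that of Cebpg without that array (0.0535) or SS 8 h array 2 (0.0546), while Nfil3 was called without AA 8 h array 1 (0.0369).

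The untreated lines did not start level. Untreated AA cells were lower than untreated SS cells in 4 of the 6 genes, where 12.5% of probe sets were called and 6.82% as lower. Atf3 was at 0.316 of its SS mean (-1.44 ± 0.20, adjusted p = 0.00327 in limma), Cebpb at 0.428 (-1.04 ± 0.21, 0.0158), Nfil3 at 0.442 (-0.99 ± 0.24, 0.0302) and Atf4 at 0.583 (-0.64 ± 0.16, 0.0318). Cebpg, at 0.783 (0.22), and Atf5, at 1.42 (0.28), were not called, and Atf5 was the only one of the 6 with the higher mean in AA. The AA arrays of the other 5 lay below the SS arrays, as in 25.2% of all probe sets. The Atf3 call held without any 1 array. That of Nfil3 was lost without any 1 of the 4 arrays compared (0.0698 to 0.172), that of Cebpb without either AA array or SS array 1 (0.0759 to 0.0782), and that of Atf4 without any 1 untreated or 4 h array (0.0543 to 0.148). On the second Atf3 probe set the difference was -0.47 ± 0.17 (0.12) and on the third it was 0.53 ± 0.17 (0.0772). The second Nfil3 probe set read -0.43 ± 0.20 (0.215).

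**Figure D3:**
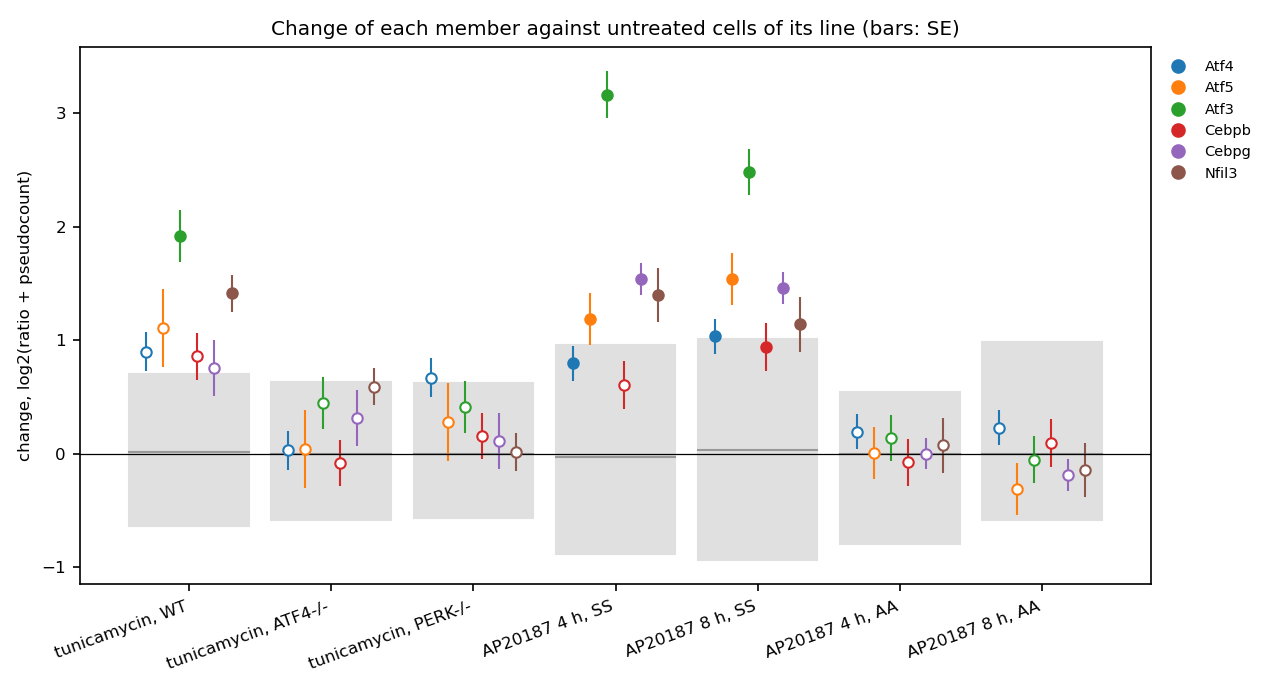
Change of each gene against untreated cells of its own line on the log2(ratio + 0.247) scale, with SE bars; filled points passed limma's adjusted p of 0.05, and grey boxes span the 5th to 95th percentile of all tested probe sets, with a line at their median. Atf3 reaches 1.92 with tunicamycin in wild-type cells and 3.16 and 2.48 in SS cells, and no point is filled in the ATF4-/-, PERK-/- and AA columns.

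On the Fv2E-PERK arrays all 26 other bZIP genes with a probe set could be tested. Of all probe sets 2.99% were called as higher in SS cells at 4 h and 4.93% at 8 h. At 4 h in SS cells 6 rose, led by Fos (4.00 ± 0.18, adjusted p = 0.000112 in limma), an immediate early gene, Ddit3 (1.85 ± 0.20, 0.00259) and Junb (1.28 ± 0.16, 0.00612). At 8 h 5 rose and 1 fell, with Fos at 2.75 ± 0.18, Ddit3 at 2.38 ± 0.20 and Xbp1 at 1.24 ± 0.17. Their medians were 0.32 and 0.19, against 1.29 and 1.30 for the 6 members. Of 27 ATF4 targets, 8 rose at 4 h and 18 at 8 h, with Ppp1r15a, a phosphatase subunit that reverses eIF2alpha phosphorylation, at 2.24 ± 0.18 and 2.72 ± 0.18. In AA cells limma called 0 of 26 and 0 of 27 at both times, with 0 and 2 of the bZIP genes and 1 and 1 of the targets at an unadjusted p under 0.05. Of 13 ER chaperones 1 rose in SS cells at each time, Dnajb9 (1.37 ± 0.26 and 1.47 ± 0.26, adjusted p = 0.0252 and 0.0138).

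The promoter sequences of 3 members are shown because Atf3 and Cebpg held their calls in SS cells without any 1 array, while Cebpb was called at 8 h and not at 4 h. Each is the 250 bases before the start of the gene in RefSeq on GRCm38.p6, read 5′ to 3′ on the strand of the gene. They lie at chr1:191183334-191183583 (minus strand) for Atf3, chr2:167688665-167688914 (plus strand) for Cebpb and chr7:35056567-35056816 (minus strand) for Cebpg. Capitals mark matches, on either strand, to TGATGNAA (the core of the composite C/EBP-ATF site), TGACGTNA (a cAMP response element form) and TGACG (its core alone).
Atf3: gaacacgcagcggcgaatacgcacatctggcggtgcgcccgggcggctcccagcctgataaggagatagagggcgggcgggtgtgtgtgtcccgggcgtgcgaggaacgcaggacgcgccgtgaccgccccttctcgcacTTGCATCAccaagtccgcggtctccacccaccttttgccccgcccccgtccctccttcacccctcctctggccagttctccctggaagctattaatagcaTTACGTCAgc
Cebpb: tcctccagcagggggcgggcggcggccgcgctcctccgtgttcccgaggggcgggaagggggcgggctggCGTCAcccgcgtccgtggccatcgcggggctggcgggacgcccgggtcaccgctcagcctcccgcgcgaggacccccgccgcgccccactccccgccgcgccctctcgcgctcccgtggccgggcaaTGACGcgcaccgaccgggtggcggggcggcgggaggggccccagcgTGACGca
Cebpg: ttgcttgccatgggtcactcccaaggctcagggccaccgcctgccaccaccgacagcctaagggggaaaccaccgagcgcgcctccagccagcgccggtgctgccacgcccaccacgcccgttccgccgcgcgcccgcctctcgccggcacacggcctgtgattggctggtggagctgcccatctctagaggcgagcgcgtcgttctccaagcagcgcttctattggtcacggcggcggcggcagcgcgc
In the Atf3 window TTGCATCA, a match to TGATGNAA on the other strand, begins 110 bases before the start, and TTACGTCA, a match to TGACGTNA, begins 10 bases before it and overlaps the one match to TGACG. The Cebpb window holds 3 matches to TGACG, beginning 180, 53 and 7 bases before the start, and the Cebpg window holds no match. Atf4 and Nfil3 had 1 match to TGACG each, and the 2 windows listed for Atf5 had none. Among 32851 windows of this length, 3.45% held TGATGNAA, 2.52% TGACGTNA and 17.8% TGACG. A match is a description of letters, and windows further from the start were not searched.

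Correlations between the 6 genes are given as a description, over 12 arrays of each set, which share lines and treatments. Pearson's r between 2 members ran from 0.74 (Atf5 with Cebpb) to 0.99 (Atf3 with Nfil3) in the Fv2E-PERK set. In the tunicamycin set it ran from 0.26 (Atf4 with Nfil3) to 0.96 (Atf5 with Cebpb). Atf4 and Nfil3 differ there in the mutant lines, Atf4 being lowest in ATF4-/- cells and Nfil3 lowest in PERK-/- cells.

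**Figure D4:**
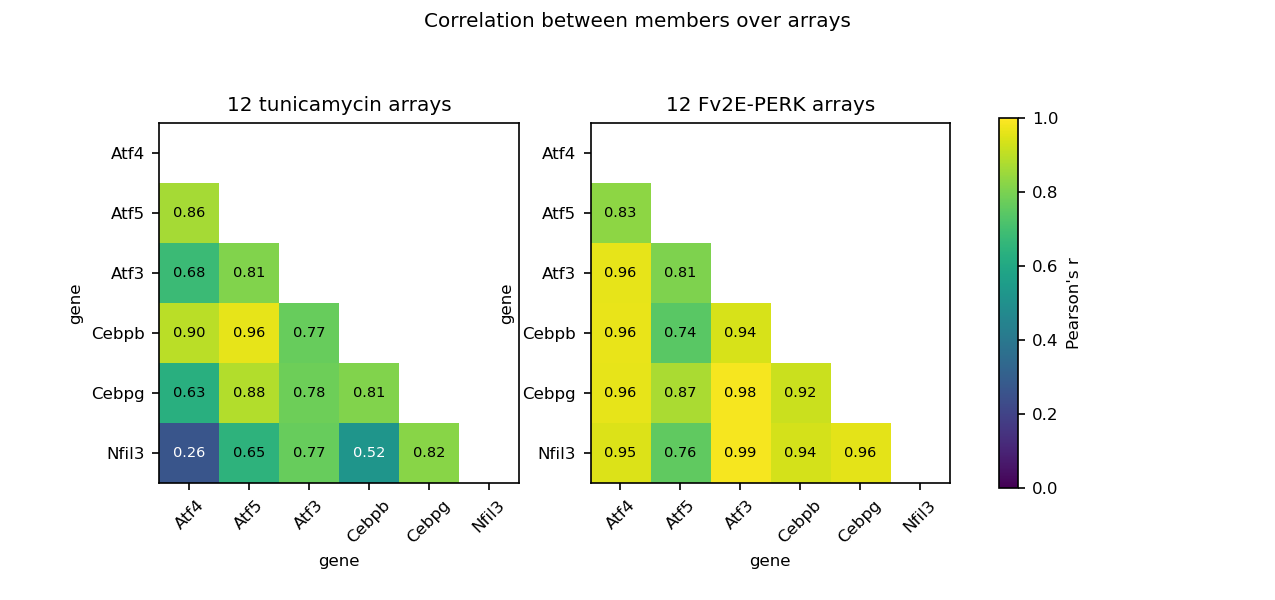
Pearson's r between each pair of the 6 genes on log2(ratio + 0.247), over the 12 tunicamycin arrays (left) and the 12 Fv2E-PERK arrays (right). The right panel lies between 0.74 and 0.99, and the lowest cell on the left is Atf4 with Nfil3 at 0.26.

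Among 6526 other probe sets of 1 gene tested in both sets, the 3 genes most like each member were ranked by Pearson's r over the 24 arrays after the mean of each set of 12 was subtracted. Atf4 was closest to Aars (0.98), an alanyl-tRNA synthetase gene, Asns (0.97), the asparagine synthetase gene, and Mthfd2 (0.97), a gene of mitochondrial folate metabolism. Cebpb was closest to Gars (0.95), Aldh18a1 (0.94) and Tars (0.93), and Atf5 to Slc7a5 (0.92), an amino acid transporter gene, Glce (0.91) and Lars (0.91). Gars, Tars and Lars encode tRNA synthetases too. Atf3 was closest to the immediate early gene Egr1 (0.96), Arl14ep (0.95) and Il17ra (0.94). On the tunicamycin arrays alone Egr1 and Il17ra reached only 0.66 and 0.69 with Atf3, against 0.93 for Arl14ep. Cebpg was closest to Mdfic (0.96), Arl14ep (0.95) and Stbd1 (0.92), and Nfil3 to Zfp131 (0.94), Agfg1 (0.93) and Ctage5 (0.93).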

How the data were processed

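In all, 12488 probe sets were deposited. From the values, the authors deposited a ratio, linear and relative to the probe set's median, since that median lay within 0.01 of 1 in 91.46% of cases. The sources used here name no software, scale or centring. The number of arrays limits the precision. After 66 controls were left out, 12422 remained, of which 10833 had 1 symbol, 396 several and 1193 none in the platform annotation. Groups came from the sample descriptions, where a few running numbers differ from the titles.

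In R 4.3.3, with version 1.17.8 of data.table, limma 3.58.1 fitted 6 group means within each set of 12 arrays, with 6 residual degrees of freedom, trended prior and no covariates. Values were log2(ratio + 0.247), with a pseudocount of the overall median over 4. Probe sets ever at the floor (0.01) in a set were left out, which kept 7387 and 12384. Contrasts were two-sided, with p-values adjusted by Benjamini-Hochberg across those kept and a threshold of 0.05. Folds divide group means of the ratios; log2 changes understate low values. The fit was also run on simulated data, and its own share of false calls there is not given here.

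The probe set used had the fewest floor values, then a plain _at suffix, then the lowest number. The text names all probe sets of the 6 genes, the 3 genes most like each, and up to 3 genes with the smallest p from each of 4 pathway lists. Members and lists were chosen with earlier results of these data known. Alternatives were one fit of 24 arrays, 2 other array scalings, 2 floor filters, a smaller pseudocount (divisor 16), the replicate number as a block, other probe sets and each array left out.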

Additional observations from a re-analysis of the deposited data

Results flagged for a closer look

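The response to AP20187 differed between the AA and SS lines, by the interaction in limma, for 2 of the 6 genes at 4 h and 3 at 8 h. At 4 h Atf3 differed by -3.02 and Cebpg by -1.54 on the log2(ratio + 0.247) scale. At 8 h Atf3 differed by -2.53, Atf5 by -1.85 and Cebpg by -1.65. In each case the 2 treated SS arrays lay above the 2 untreated ones, as in 24.7% of all probe sets at 4 h and 29% at 8 h. The AA change was not called, where 0% of all probe sets were called at either time. The lines also differ in clone and, as far as the labels say, possibly in PERK genotype, which cannot be told apart from the eIF2alpha mutation here.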

How the results depend on the processing

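Apart from fits with 1 array left out, the number of the 6 genes called changed beyond 1.5 times in the settings listed here. Leaving out 1 array changed it in many more fits, as given in the next paragraph. The cause was not tested. With all 24 arrays in one fit it was 5 for tunicamycin in wild-type cells (2 with the sets apart), 2 for untreated ATF4-/- (1) and 2 for untreated PERK-/- against wild-type cells (0). Earlier simulation of such a fit gave a share of false calls well above the nominal one, a limit on all its counts below. For untreated ATF4-/- cells it was 2 after quantile normalization and 0 with either looser floor filter, and for untreated PERK-/- cells 1 with array medians, the smaller pseudocount or the replicate block (Nfil3, adjusted p = 0.0381 in limma with the block). For treated ATF4-/- cells the smaller pseudocount gave 3 (5). The replicate block changed no other call of a member. Replicate numbers were not shown to pair arrays, since of 15 correlations of same-numbered deviations in each set, 3 and 1 exceeded 0.1.

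Leaving out 1 array gave 0 to 3 called members for tunicamycin in wild-type cells, 0 to 1 for untreated ATF4-/- cells, 2 to 4 for treated ATF4-/- and 3 to 6 for treated PERK-/- cells. In SS cells it gave 2 to 5 at 4 h and 2 to 6 at 8 h, for the AA minus SS difference 0 to 2 and 0 to 4, and for the untreated AA minus SS comparison 1 to 4.

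Changes that turned sign were all uncalled under the setting that turned them. On the second Atf3 probe set the change was -0.21 in ATF4-/-, -0.15 in PERK-/-, -0.15 in AA cells at 4 h and 0.13 at 8 h. On the third it was -0.074 in SS cells at 4 h, -0.13 and 0.21 in AA cells, 0.16 for the 8 h difference, 0.53 for untreated AA minus SS and 0.12 for 8 h minus 4 h. On the second Nfil3 probe set it was -0.010 in ATF4-/-, -0.083 in PERK-/- and -0.016 and 0.31 in AA cells. Quantile normalization turned Atf4 (-0.038) and Atf5 (-0.0077) in ATF4-/- cells, and array medians turned Cebpg (-0.000796) in AA cells at 4 h.

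Leaving out 1 array turned small changes as well, with these ranges. For tunicamycin in ATF4-/- cells Atf4 ran from -0.038 to 0.099, Atf5 from -0.091 to 0.17 and Cebpb from -0.23 to 0.073. In PERK-/- cells Atf5 ran from -0.080 to 0.64, Cebpb from -0.010 to 0.32, Cebpg from -0.22 to 0.44 and Nfil3 from -0.043 to 0.073. Untreated Nfil3 in ATF4-/- cells ran from -0.14 to 0.088 and untreated Atf3 in PERK-/- cells from -0.46 to 0.20. In AA cells at 4 h Atf5 ran from -0.20 to 0.22, Cebpg from -0.0235 to 0.0302 and Nfil3 from -0.090 to 0.24, and at 8 h Atf3 from -0.14 to 0.040, Cebpb from -0.13 to 0.32 and Nfil3 from -0.46 to 0.17.

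Over all probe sets, the count called for tunicamycin in wild-type cells was 62, and 208 with 24 arrays in one fit, 28 without the floor filter and 18 with the looser one. With 24 arrays in one fit it was 85 in place of 31 for ATF4-/- and 17 in place of 0 for PERK-/- cells, 4 and 34 in place of 0 for the differences from wild type, 62 in place of 7 and 369 in place of 121 for the untreated, and 267 in place of 99 and 880 in place of 491 for the treated comparisons. For AP20187 it was 4 and 15 in place of 0 in AA cells, 106 in place of 60 for the 4 h difference and 166 in place of 63 for 8 h minus 4 h. Quantile normalization gave 66 for ATF4-/- tunicamycin, 14 for untreated ATF4-/-, 623 in place of 936 for SS at 8 h, 154 in place of 258 for the 8 h difference and 38 for 8 h minus 4 h. The replicate block gave 35, 170 and 11 for the 4 h and 8 h differences and 8 h minus 4 h, and 11 for untreated ATF4-/- cells. Without the floor filter it was 8 for PERK-/- tunicamycin, 13 and 11 for the differences from wild type, 13 for untreated ATF4-/- and 261 for treated PERK-/- cells. The looser filter gave 7 for ATF4-/- tunicamycin, 4 for untreated and 57 for treated ATF4-/- cells, where the smaller pseudocount gave 64. In AA cells at 4 h it was 1 after quantile normalization or array medians. Leaving out 1 array moved these counts further, and with them the shares given beside the members. They ran from 3 to 54 for tunicamycin in wild-type, 0 to 35 in ATF4-/- and 0 to 0 in PERK-/- cells, and 0 to 2 and 0 to 3 for the differences from wild type. They ran from 0 to 6 and 38 to 125 for the untreated, and 13 to 94 and 124 to 452 for the treated levels of ATF4-/- and PERK-/- cells. For AP20187 they ran from 70 to 660 and 164 to 1012 in SS cells at 4 h and 8 h (589 and 936 with all arrays), 0 to 1 and 0 to 46 in AA cells, 1 to 48 and 21 to 515 for the differences, 592 to 1739 for untreated AA minus SS (1554) and 0 to 50 for 8 h minus 4 h. The count of arrays, 2 a group, limits the precision of every change, and values at the floor or below the pseudocount limit the low genes.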
